A study of Mus musculus with 6 samples.

Results

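The genes described here are 10 core members of the intrinsic pathway of apoptosis, the BCL2 family and its downstream partner Apaf1, in the colon of BALB/c mice given 5-fluorouracil with or without berberine. They were chosen by symbol from a fixed list (Bcl2, Bcl2l1, Mcl1, Bax, Bak1, Bbc3, Pmaip1, Bid, Bcl2l11 and Apaf1), and all 10 were found among the 30777 genes of the deposited table. The study set out to find genes associated with berberine treatment. Of its 6 RNA sequencing libraries, 3 were from colon tissue of BALB/c mice, an inbred laboratory strain, treated with the chemotherapy drug 5-fluorouracil (5-Fu), a pyrimidine analogue. The other 3 were from mice given 5-fluorouracil and berberine, a plant alkaloid (5-Fu+BBR). Both groups received 5-fluorouracil, and no library without it was analysed here. The labels give no age, dose, treatment time or genetic change, and whether each library stands for a separate animal is not stated. The p-values therefore cover only the spread between these samples, which may be technical. Values are listed for replicates 1 to 3 of a group in that order. The tissue is a mixture of cell types, and fewer cells of a type cannot be told apart from less RNA per cell.

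Apoptosis through mitochondria is set by the balance between classes of BCL2 proteins. The pro-survival proteins BCL2, BCL-XL (from Bcl2l1) and MCL1 hold the effectors BAX and BAK in check, and the BH3-only proteins PUMA (Bbc3), NOXA (Pmaip1), BID and BIM (Bcl2l11) release or activate the effectors. BAX and BAK then open the outer mitochondrial membrane, cytochrome c escapes, and APAF1 assembles with it into the apoptosome, which activates caspase-9. In the intestine, crypt epithelial cells enter this pathway after DNA damage, largely through p53, of which Bbc3, Pmaip1, Bax and Apaf1 are known targets. Much of the control of these proteins lies in binding, cleavage and turnover of the protein, which RNA levels do not show.

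With edgeR's quasi-likelihood test, 0 of the 10 members had an adjusted p under 0.05, and 2 did with DESeq2, as given below. Over all genes, 15 of the 20101 tested passed (0.0746%). At an unadjusted p under 0.05, 3 of the 10 members differed, all lower in 5-Fu+BBR: Apaf1, Bcl2l1 and Bax. Of all genes tested, 15.6% lay under that threshold in either direction, 9.48% being higher and 6.08% lower. For 4 of the 10 members the groups had no overlap in CPM, which are counts scaled to the adjusted size of the library. These were the same 3 genes and Bcl2, which was higher in 5-Fu+BBR. This held for 21.9% of all genes tested, 12.3% higher and 9.68% lower. The median log2 fold change, 5-Fu+BBR minus 5-Fu, was -0.14 over the 10 members and 0.01 over all genes tested, and 7 members had negative and 3 positive values.

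The DNA just before the annotated starts of the 4 members whose CPM did not overlap is shown to place these genes in the genome, since differences in their RNA are described below. The sequences are the reference sequence of RefSeq on build GRCm38.p6, which represents C57BL/6J and not BALB/c, within the 250 bases before the start, leaving out bases inside the gene as the deposited table annotates it. They read 5′ to 3′ on the strand of the gene. Capitals mark GC boxes (GGGCGG on either strand, the core of SP1 sites) and matches to the p53 half-site consensus, found by letter matching alone.
Apaf1 (chr10:91082771-91082993, strand -): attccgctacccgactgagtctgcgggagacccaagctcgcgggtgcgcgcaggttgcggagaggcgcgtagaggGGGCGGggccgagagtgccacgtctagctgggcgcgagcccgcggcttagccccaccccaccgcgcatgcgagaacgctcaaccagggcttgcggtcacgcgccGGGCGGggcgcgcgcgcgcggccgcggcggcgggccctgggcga
Bax (chr7:45466899-45467148, strand -): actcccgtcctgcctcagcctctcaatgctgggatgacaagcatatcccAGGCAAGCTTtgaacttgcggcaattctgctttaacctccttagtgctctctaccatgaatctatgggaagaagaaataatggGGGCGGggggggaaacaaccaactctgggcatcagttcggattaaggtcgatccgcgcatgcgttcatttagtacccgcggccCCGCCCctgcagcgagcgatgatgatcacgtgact
Bcl2l1 (chr2:152831729-152831978, strand -): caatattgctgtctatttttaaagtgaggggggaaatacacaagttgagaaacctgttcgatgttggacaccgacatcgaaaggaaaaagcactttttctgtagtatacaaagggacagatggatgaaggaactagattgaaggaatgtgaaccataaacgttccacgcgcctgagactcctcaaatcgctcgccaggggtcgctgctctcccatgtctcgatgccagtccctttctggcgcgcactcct
Bcl2 (chr1:106714291-106714540, strand -): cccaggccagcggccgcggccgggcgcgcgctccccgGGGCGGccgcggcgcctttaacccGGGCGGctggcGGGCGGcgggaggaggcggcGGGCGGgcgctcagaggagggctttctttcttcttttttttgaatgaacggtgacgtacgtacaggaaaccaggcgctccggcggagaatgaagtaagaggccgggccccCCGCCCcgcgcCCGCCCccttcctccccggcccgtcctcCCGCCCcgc
Apaf1 had 2 GC boxes in its 250-base window, Bax 2 and Bcl2 7, while this window of Bcl2l1 held none. GC boxes were present in 32.7% of the 32851 RefSeq windows of the same length. Of the 4, only Bax had a p53 half-site in the window, the first run of capitals in its sequence, and 7.13% of all windows held 1 or more. A letter match is a description of the reference sequence, and binding was not measured.

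Apaf1 had the largest difference among the members. Its gene lies on chromosome 10 from 90989311 to 91082770 of GRCm38 (ENSMUSG00000019979), and 7 annotated transcripts are summed in its count. The level of Apaf1 was 80.1, 85.9 and 57.3 CPM without berberine and 50.5, 47.3 and 45.9 CPM with it. The 3 libraries of 5-Fu+BBR lay close together and below all those of 5-Fu, in which replicate 3 stood well under the other two. The means were 74.5 ± 15.1 and 47.9 ± 2.35 CPM (SD, n = 3 each), 1.56-fold lower with berberine (log2 fold change -0.64 ± 0.15 SE, unadjusted p = 0.00315, adjusted p = 0.146 by edgeR). Without 5-Fu replicate 3 the log2 fold change was -0.79 and the adjusted p 0.0429 by edgeR, past the threshold. DESeq2 on all 6 libraries also put Apaf1 past it (adjusted p = 0.0133), in a test that called 6.1% of all genes. By edgeR the adjusted p was 0.371 without 5-Fu replicate 1 and 0.184 without 5-Fu replicate 2. It was 0.179 without 5-Fu+BBR replicate 1 and 0.466 without 5-Fu+BBR replicate 2. In limma's test on log2(FPKM + 1) the adjusted p was 0.237.

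Among the 3 pro-survival members, Mcl1 was by far the most abundant RNA. Per length, in FPKM (fragments scaled to transcript length and sequencing depth, as deposited), Mcl1 made up between 89.6% and 93.0% of the summed level of Mcl1, Bcl2l1 and Bcl2 in the 6 libraries. Other genes of the family are not in this sum. One of them, Bcl2l2, named after its values were seen, had a median of 12.9 FPKM, against 9.23 FPKM for Bcl2l1. Mcl1 (chromosome 3, 95658788 to 95663176), whose protein is short-lived and needed by many cell types, was at 118, 122 and 126 FPKM in 5-Fu and at 107, 115 and 127 FPKM in 5-Fu+BBR. These ranges overlapped, and the log2 fold change was -0.07 ± 0.13 (adjusted p = 0.828 by edgeR).

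Bcl2l1 (ENSMUSG00000007659, chromosome 2, 152780668 to 152831728), which encodes BCL-XL, was lower in 5-Fu+BBR in each library. Its libraries read 65.3, 52.2 and 61.3 CPM without berberine and 46.7, 42.6 and 42.6 CPM with it. The highest library with berberine lay under the lowest without it, on the FPKM scale as well. The means were 59.6 ± 6.7 and 44.0 ± 2.39 CPM, a 1.35-fold difference (log2 fold change -0.44 ± 0.11, unadjusted p = 0.00485, adjusted p = 0.156 by edgeR). By DESeq2 the adjusted p was 0.036. The count sums 8 annotated transcripts, so long and short splice forms, which have opposite actions, are not separated.

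Bcl2 (ENSMUSG00000057329, chromosome 1, 106538178 to 106714274), prominent in lymphocytes, was the member with the lowest median level per length. Without berberine it stood at 16.6, 16.3 and 17.4 CPM, and with berberine at 19.6, 26.3 and 18.7 CPM. The 5-Fu libraries were nearly alike, and 5-Fu+BBR replicate 2 stood above all others. The log2 fold change was 0.36 ± 0.16 (unadjusted p = 0.0556, adjusted p = 0.335 by edgeR). Without 5-Fu+BBR replicate 2 it was 0.19 (adjusted p = 0.727), and without 5-Fu+BBR replicate 3 it was 0.46 (unadjusted p = 0.035, adjusted p = 0.373). Lymphocyte markers moved with Bcl2. All 11 markers examined had positive log2 fold changes, with an unadjusted p under 0.05 by edgeR for each, and 10 of the 11 separated the groups. Their summed level was 289 to 513 CPM in 5-Fu and 653 to 1500 CPM in 5-Fu+BBR, with the highest value in 5-Fu+BBR replicate 2, and none was at 0 in any library. This sum is mostly Jchain, a plasma cell gene. Ptprc, the pan-leukocyte marker CD45, was at 28.1, 58.7 and 38.2 CPM against 84.1, 123 and 112 CPM. The part of these cells in the Bcl2 result was not tested.

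Of the effectors, Bak1 was more abundant than Bax, with between 65.6% and 79.8% of their summed FPKM. Bax (ENSMUSG00000003873, chromosome 7, 45461697 to 45466898) had 47.3, 44.4 and 32.9 CPM without berberine and 30.9, 31.9 and 32.7 CPM with it. On this scale the groups just failed to touch, because 5-Fu replicate 3 was at nearly the level of the berberine libraries. In FPKM they overlapped, with 25.4, 25.2 and 16.3 against 15.9, 17.5 and 17.6. The log2 fold change was -0.39 ± 0.15 (unadjusted p = 0.0296, adjusted p = 0.27 by edgeR), and -0.52 without 5-Fu replicate 3 (adjusted p = 0.0986). Without 5-Fu replicate 1 it was -0.28 (unadjusted p = 0.107 by edgeR). In limma's test on log2(FPKM + 1) the unadjusted p of Bax was 0.0921.

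Bak1 (chromosome 17, 27019810 to 27029009) did not separate the groups. Its values were 147, 129 and 148 CPM without berberine and 186, 127 and 120 CPM with it, the first library with berberine being the highest of the 6. The log2 fold change was 0.03 ± 0.18 (adjusted p = 0.956 by edgeR), and -0.19 without 5-Fu+BBR replicate 1. The region of Bak1 also holds Ggnbp1 and a predicted gene on the other strand, with at most 80 and 563 counts, and the sources used here do not say whether the counting used strand.

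**Figure D1:**
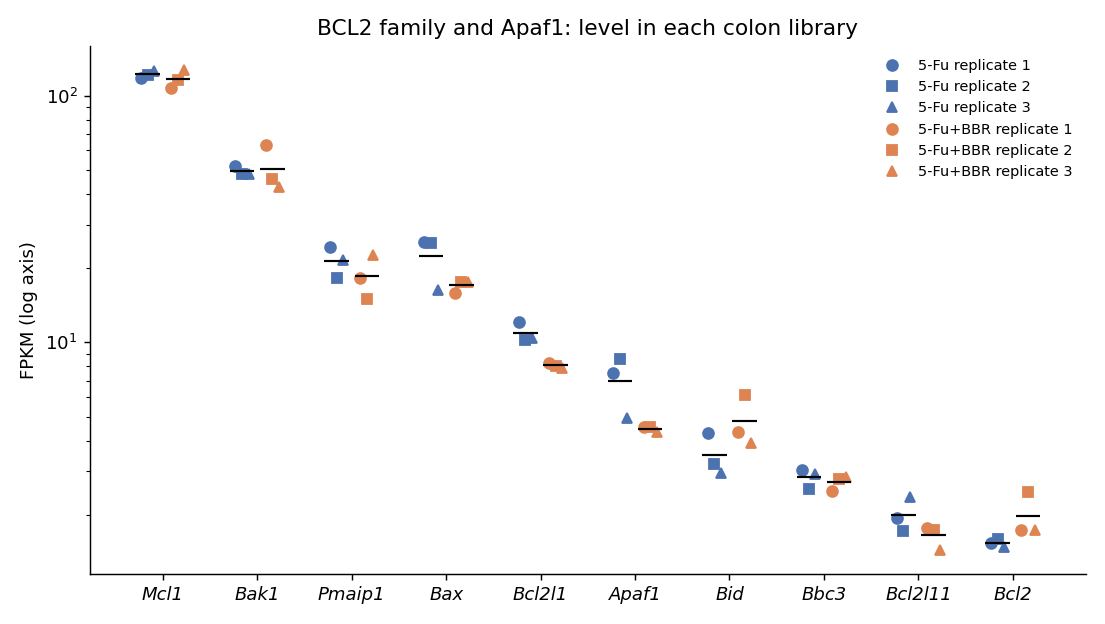
Level of each member in FPKM on a log axis, ordered by the median over the 6 libraries, with 5-Fu in blue, 5-Fu+BBR in orange, 1 marker per library and a bar at each group mean. Mcl1 lies at 107 to 127 FPKM and Bcl2 at 1.48 to 2.49 FPKM, and the groups separate for Bcl2l1, Apaf1 and Bcl2.

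The order of the levels per length ran from Mcl1 (median over the 6 libraries 119.7 FPKM) through Bak1 (48.2), Pmaip1 (19.9), Bax (17.6), Bcl2l1 (9.23), Apaf1 (4.75), Bid (4.11), Bbc3 (2.82) and Bcl2l11 (1.75) to Bcl2 (1.66). Ranges over the libraries overlapped between neighbours for Pmaip1 and Bax, Bcl2l1 and Apaf1, Apaf1 and Bid, Bid and Bbc3, and Bcl2l11 and Bcl2. Mcl1 lay above Bak1, Bak1 above Pmaip1, Bax above Bcl2l1 and Bbc3 above Bcl2l11 in each library.

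With all 6 libraries, 0 of the 4 BH3-only genes had an unadjusted p under 0.05 by edgeR, and in each the groups overlapped. Bid (chromosome 6, 120891930 to 120916853), whose protein is cut by caspase-8 and so links death receptors to mitochondria, had 18.01, 12.8 and 13.4 CPM without berberine and 18.9, 25.1 and 16.3 CPM with it. The high value was again 5-Fu+BBR replicate 2, and 5-Fu replicate 1 lay among the berberine libraries. The log2 fold change was 0.45 ± 0.21 (unadjusted p = 0.0626, adjusted p = 0.349 by edgeR), and 0.26 without 5-Fu+BBR replicate 2. It was 0.61 without 5-Fu replicate 1 and 0.58 without 5-Fu+BBR replicate 3, with an unadjusted p of 0.0243 and 0.03 by edgeR. The end of Bid overlaps Bcl2l13 on the other strand over 913 bases, and Bcl2l13 had 2865 to 3789 counts, so reads there may be split between them.

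Pmaip1 (NOXA), which acts mainly on MCL1, was the most abundant BH3-only RNA. Without berberine it read 78.5, 55.5 and 75.4 CPM, and with berberine 61.5, 47.2 and 72.5 CPM. Replicate 2 was the lowest in both groups, and the log2 fold change was -0.21 ± 0.19 (adjusted p = 0.643 by edgeR). Leaving out single libraries moved it between -0.06, without 5-Fu+BBR replicate 2, and -0.36, without 5-Fu+BBR replicate 3. Bbc3 (chromosome 7, 16308393 to 16318205), which encodes PUMA, a main mediator of p53-driven death in crypts, varied little. Its level was 7.64, 6.04 and 8.00 CPM without berberine and 6.53, 6.87 and 7.14 CPM with it. The log2 fold change was -0.08 ± 0.19, with an adjusted p of 0.886 by edgeR. Its counts, 380 to 424 per library, were the lowest of the members. Bcl2l11 (chromosome 2, 128126038 to 128162547), which encodes BIM, was at 18.4, 15.4 and 24.2 CPM against 17.5, 16.1 and 13.7 CPM. The highest of the 6 was 5-Fu replicate 3 and the lowest 5-Fu+BBR replicate 3 (log2 fold change -0.29 ± 0.19, adjusted p = 0.517 by edgeR). The log2 fold change of Bcl2l11 was -0.09 without 5-Fu replicate 3.

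Ratios between members, of opposite action except for Bcl2 to Bcl2l1, were taken per library in FPKM and are given as a description, with no test. The ratio of Bax to Bcl2, often read as a measure of the balance between death and survival, was 16.5, 15.8 and 11.01 in 5-Fu and 9.13, 7.04 and 10.2 in 5-Fu+BBR. All berberine libraries were lower, by a small margin between replicates 3 of the groups. The ratio of Bax to Bcl2l1, the more abundant of these survival genes, was 2.11, 2.47 and 1.56 against 1.92, 2.18 and 2.23 and overlapped, both genes being lower with berberine. The ratio of Bak1 to Bcl2l1 was 4.29, 4.72 and 4.62 against 7.60, 5.70 and 5.38, all higher in 5-Fu+BBR. Bcl2 to Bcl2l1 was 0.128, 0.157 and 0.142 against 0.211, 0.309 and 0.220, also all higher. In FPKM all berberine libraries lay above those of 5-Fu for Bcl2 and below them for Bcl2l1, so this ratio had to separate. The ratios to Mcl1 overlapped for both Bax and Bak1. The side to which the ratio leaned thus differed with the pair chosen.

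**Figure D2:**
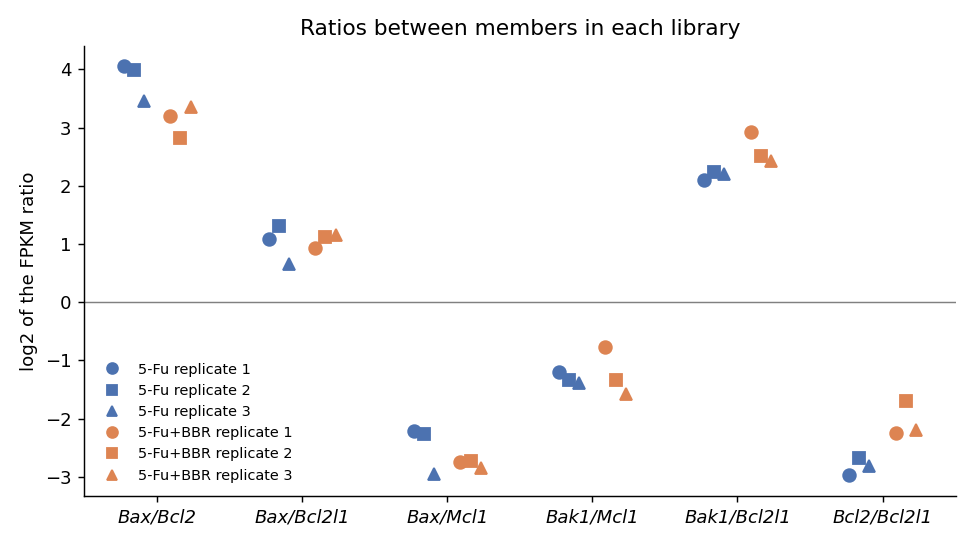
The log2 of the FPKM ratio of 6 pairs of members, with 1 marker per library, 5-Fu in blue and 5-Fu+BBR in orange. Bax/Bcl2 lies lower with berberine (2.82 to 3.35 against 3.46 to 4.05), Bak1/Bcl2l1 and Bcl2/Bcl2l1 lie higher, and the other 3 pairs overlap.

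Genes of dividing cells, like Apaf1 and Bax, were lowest of their group in 5-Fu replicate 3. The sum of Mki67, Top2a, Ccnb1, Ccna2 and Pcna was 630, 563 and 325 CPM without berberine and 503, 457 and 386 CPM with it. None of the 5 was at 0 in any library. The lowest sum was that of 5-Fu replicate 3, and the groups overlapped, unlike for Apaf1. Bok, a further BCL2 family effector, was also lowest of its group there (20.7, 17.5 and 9.46 CPM in 5-Fu and 8.56, 10.5 and 11.5 CPM in 5-Fu+BBR). So had Dffb, the nuclease that cuts DNA in apoptosis (11.4, 13.4 and 7.96 against 7.35, 6.95 and 8.03 CPM), and Birc5, or survivin, a mitotic inhibitor of apoptosis named after its values were seen (46.7, 40.2 and 21.2 against 30.2, 32.8 and 21.4 CPM). The order differed in 5-Fu+BBR. There the dividing-cell sum, Apaf1 and Birc5 were lowest of the group in replicate 3, while Bax (32.7 CPM), Bok and Dffb were highest in it. Of the members, only Apaf1 and Bax were lowest of their group in 5-Fu replicate 3 in CPM. Mcl1 and Bcl2l11 were highest of all libraries there (552 and 24.2 CPM). The part of dividing cells in these results was not tested.

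**Figure D3:**
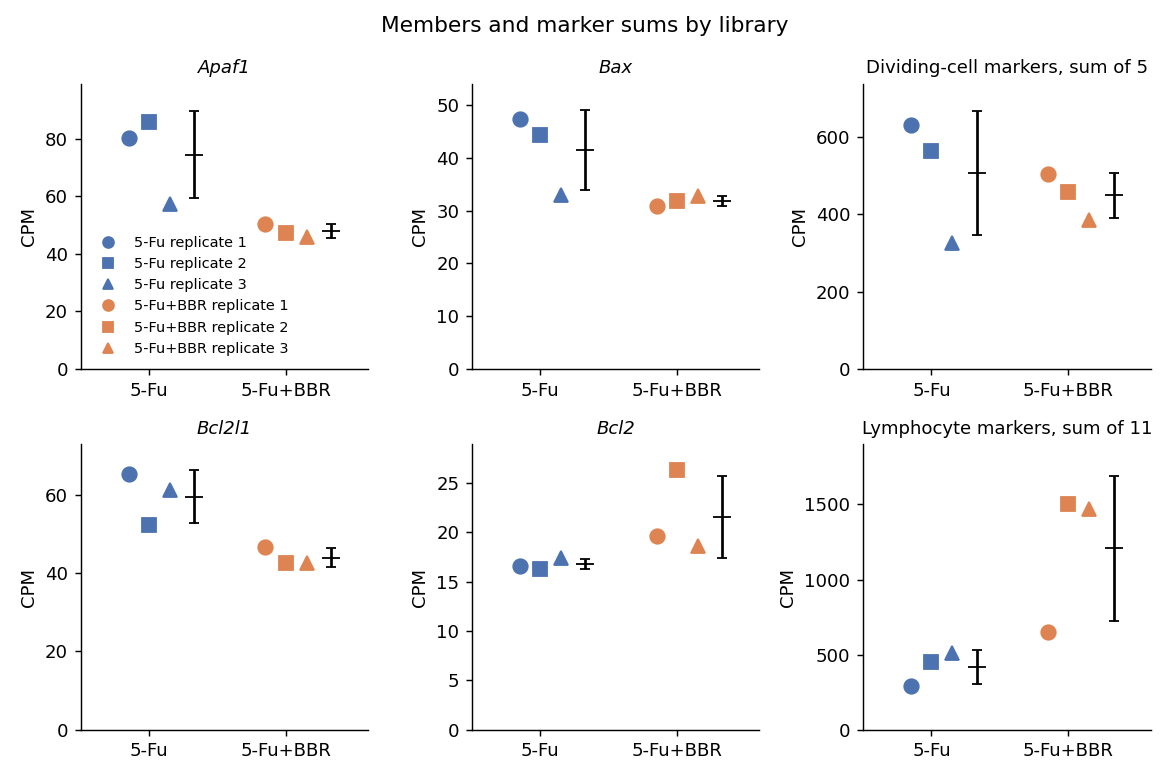
CPM of 4 members and of the summed markers of dividing cells and lymphocytes, 1 marker per library, with the mean and SD beside each group. 5-Fu replicate 3 is the lowest of its group for Apaf1, Bax and the dividing-cell sum (57.3, 32.9 and 325 CPM), and 5-Fu+BBR replicate 2 is the highest of all libraries for Bcl2 and the lymphocyte sum (26.3 and 1500 CPM).

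The other members of the BCL2 family were also without a call at an adjusted p under 0.05. Of 16 examined, 14 were tested, Bcl2l10 had 0 counts in 5 libraries and 3 in the other, and Hrk was not analysed here. At an unadjusted p under 0.05 by edgeR, 3 were higher and 0 lower. These were 21.4% of those tested, where 15.6% of all genes tested had such a p and 9.48% were also higher. The median log2 fold change of the list was -0.12. The 3 were Bcl2a1d and Bcl2a1a, copies of the pro-survival gene A1 found in leukocytes, and Bcl2l14. Bcl2a1d was at 3.91, 3.63 and 4.04 CPM against 4.63, 8.61 and 7.34 CPM (log2 fold change 0.83 ± 0.27, unadjusted p = 0.0148, adjusted p = 0.219 by edgeR). Bcl2a1a was at 2.45, 2.23 and 2.35 CPM against 4.63, 3.13 and 3.52 CPM (0.68 ± 0.26). Both were higher in all 3 berberine libraries, as were 10 of the 11 lymphocyte markers. A further copy, Bcl2a1b, named after its values were seen, overlapped between the groups (3.51, 3.83 and 4.04 against 4.01, 6.73 and 4.49 CPM, unadjusted p = 0.149 by edgeR). Reads can be split between these near-identical copies. Bcl2l14 was at 70.0 ± 3.74 against 83.8 ± 7.67 CPM (0.26 ± 0.11). Bok had a log2 fold change of -0.64 ± 0.29 (unadjusted p = 0.0544 by edgeR). Without 5-Fu replicate 1 it was -0.41 (unadjusted p = 0.2 by edgeR) and without 5-Fu replicate 3 it was -0.90 (unadjusted p = 0.00156, adjusted p = 0.0998 by edgeR).

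Downstream of the mitochondria, 4 of 17 caspase and mitochondrial genes had an unadjusted p under 0.05, all lower with berberine, and 0 had an adjusted p under 0.05 by edgeR. The 4 were 23.5% of the list, where 15.6% of all genes tested had such a p and 6.08% were also lower. The median log2 fold change was -0.15 against 0.01 over all genes. Endog, a mitochondrial nuclease, had 16.8, 14.0 and 13.2 CPM without berberine and 11.01, 7.80 and 8.84 CPM with it (log2 fold change -0.67 ± 0.19, unadjusted p = 0.00752, adjusted p = 0.176 by edgeR). Casp6, an executioner caspase, was at 26.4, 26.6 and 30.6 against 20.6, 20.5 and 22.3 CPM (-0.40 ± 0.12). Both were lower in all 3 berberine libraries. Dffa, the inhibitor and chaperone of the nuclease DFFB, was at 29.6 ± 1.78 against 23.4 ± 1.11 CPM (-0.34 ± 0.11), and Dffb had a log2 fold change of -0.55 ± 0.22.

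The partners of Apaf1 in the apoptosome had fold changes closer to 0. Casp9, the caspase it activates, was slightly lower in CPM in each berberine library, at 24.2, 20.9 and 21.2 against 19.6, 19.6 and 20.5 CPM (log2 fold change -0.15 ± 0.12, adjusted p = 0.602 by edgeR). In FPKM the groups of Casp9 overlapped, with 3.95, 3.59 and 3.18 against 3.06, 3.26 and 3.35. Cycs, which encodes cytochrome c, was at 317 ± 56 against 318 ± 10.3 CPM. Xiap, an inhibitor of caspases, was at 114 ± 12.4 against 99.1 ± 4.98 CPM (-0.20 ± 0.11, adjusted p = 0.435 by edgeR).

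Among 10 genes of the death receptor route, which feeds into the mitochondrial one through Bid, 1 was higher and 1 lower at an unadjusted p under 0.05 (20.0% of the list, near the 15.6% of all genes). Tnfrsf10b, the mouse TRAIL receptor, had 16.05, 17.9 and 14.6 CPM without berberine and 12.4, 9.88 and 10.1 CPM with it (log2 fold change -0.59 ± 0.16, unadjusted p = 0.00705, adjusted p = 0.173 by edgeR). Its ligand Tnfsf10 stood above all 5-Fu libraries in 2 of the 3 berberine libraries and below them in the other, with 58.6, 41.6 and 43.8 against 126, 107 and 33.8 CPM (0.89 ± 0.48, adjusted p = 0.439 by edgeR). Without that other library, 5-Fu+BBR replicate 3, its log2 fold change was 1.28 (unadjusted p = 0.000125, adjusted p = 0.0764 by edgeR). With any other single library left out, the log2 fold change of Tnfsf10 was 0.55 to 1.05 (unadjusted p = 0.119 to 0.295 by edgeR). Fasl, carried by cytotoxic lymphocytes, was at 0.198, 0.357 and 0.236 against 0.490, 0.669 and 0.613 CPM (1.15 ± 0.49), on 11 to 37 counts per library. These counts are so low that Fasl was not kept for testing once counts were divided by 4. The lymphocyte markers moved in the same direction as Fasl. Tnfrsf1a, the main TNF receptor, was at 111 ± 14.4 against 90.4 ± 14.5 CPM (-0.30 ± 0.15).

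Of 12 genes of the p53 axis, 2 were lower and 0 higher at an unadjusted p under 0.05 by edgeR. These were 16.7% of the list, where 15.6% of all genes tested had such a p and 6.08% were also lower. The median log2 fold change of the list was -0.04. Zmat3 was at 28.2, 31.0 and 23.0 against 18.7, 20.2 and 21.6 CPM (-0.44 ± 0.15) and Sesn2 at 13.3, 13.7 and 11.5 against 10.3, 9.22 and 9.87 CPM (-0.38 ± 0.16). Ccng1 (-0.23 ± 0.10) and Eda2r (-0.74 ± 0.37), further p53 targets, came next by p. Eda2r was highest in 5-Fu replicate 2, without which its log2 fold change was -0.33. The central genes of the axis overlapped between the groups. Trp53 itself was at 47.6 ± 5.57 against 53.5 ± 3.95 CPM, its target and inhibitor Mdm2 at 34.5 ± 1.55 against 34.7 ± 1.09 CPM and the cell cycle inhibitor Cdkn1a at 278 ± 32.8 against 270.4 ± 34.6 CPM (adjusted p = 0.543, 0.972 and 0.929 by edgeR).

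The 4 genes examined that control turnover of the MCL1 protein gave no unadjusted p under 0.05. Usp9x, which removes ubiquitin from MCL1, was at 91.8, 111 and 101 against 87.7, 83.9 and 87.8 CPM (-0.23 ± 0.10, adjusted p = 0.341 by edgeR). The ubiquitin ligase genes Fbxw7, Huwe1 and Btrc had log2 fold changes of 0.28 ± 0.15, -0.10 ± 0.11 and 0.08 ± 0.16.

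**Figure D4:**
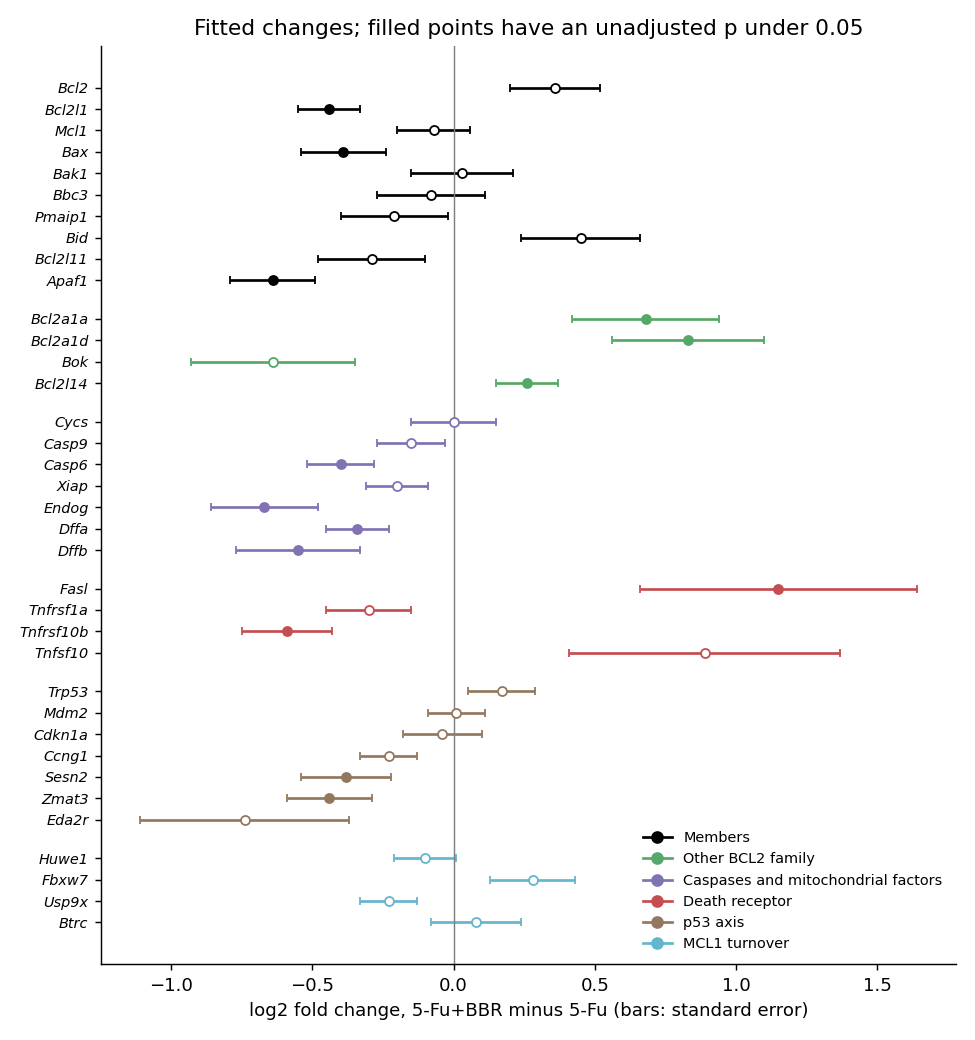
Log2 fold change of the 10 members and of 26 genes of the surrounding pathways, 5-Fu+BBR minus 5-Fu, with standard errors from the edgeR fit, filled where the unadjusted p was under 0.05. Apaf1 (-0.64) has the lowest value among the members in black, and Fasl (1.15) and Bcl2a1d (0.83) lie farthest to the right among the filled points.

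The differences were further set beside other features of the libraries. The summed counts were between 53824752 and 63831168 per library, and member counts ranged from 380 to 31153. As 1 fragment may be worth about 4 counts, the low counts of Bbc3, and more so those of Fasl, look more precise than they are. Epithelial markers, Epcam among them, were high in all 6 libraries and their summed level overlapped between the groups. Smooth muscle markers (2199 to 2864 against 4086 to 4655 CPM, 6 of 6 higher) and adipocyte markers (16.4 to 27.0 against 62.8 to 112 CPM, 5 of 5 higher) did not overlap. In 5-Fu, Lep was at 0 in each library and Adipoq and Plin1 in 2 of 3. Kidney markers summed to 17.5 to 19.4 CPM in 5-Fu, 19.1 CPM in 5-Fu+BBR replicate 1 and 169 and 164 CPM in its replicates 2 and 3. Among the defining markers, Kap was at 7.89 to 10.5 CPM in the first 4 of these and at 109 and 105 CPM in the last pair. The summed neutrophil markers, mostly Ly6g, overlapped between the groups (309 to 482 against 251.5 to 405 CPM), as did each of the 6, with Cxcr2 at 0 in 5-Fu replicate 3. Of these, S100a8 was at 35.8, 32.7 and 2.70 CPM in 5-Fu and at 9.20, 0.253 and 0.144 CPM in 5-Fu+BBR. Ly6g was at 245 CPM in 5-Fu+BBR replicate 3, so the sum follows Ly6g and does not describe S100a8. The part of these tissues in the members' differences was not tested. With 5-Fu+BBR replicate 1 alone against 5-Fu, which leaves out the 2 libraries with the high level of kidney transcripts, the log2 fold changes of Apaf1, Bcl2l1, Bax and Bcl2 were -0.57, -0.36, -0.44 and 0.22, with none at an unadjusted p under 0.05 by edgeR.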

How the data were processed

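RNA of colon tissue was sequenced in 3 libraries of 5-Fu and 3 of 5-Fu+BBR, grouped by their titles. Per the labels' protocols, polyadenylated RNA was made into strand-marked libraries with molecular identifiers. The submitters' processing notes name the build GRCm38 and list HISAT2 2.0.4, StringTie 1.3.4d and cutadapt 1.9, as well as UMI-tools, edgeR and DESeq2, without role or sequence of use. No annotation version was found in the labels.

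The deposited table holds whole-number counts and FPKM per gene, both made by the authors. In 2605 single-transcript genes with over 50 counts, the ratio of count to FPKM was the product of a constant of the gene and one of the library, to within 2%. In all 6 libraries 4 counts were more frequent than 2, 3 or 5, so 1 fragment may be worth about 4 counts. Counts were used as deposited, filtered with filterByExpr (20101 of 30777 genes kept), and scaled with TMM. The test was the two-sided quasi-likelihood test with robust dispersions of edgeR 4.0.16 (R 4.3.3), without covariates, with Benjamini-Hochberg adjustment over all genes tested. The biological coefficient of variation was 0.296. All pairs of libraries differed by more than sampling noise (chi-square per gene of at least 78.6). The steps were also run on simulated data, in which the planted changes were larger than those of the members. That run therefore does not bear on differences of the members' size. The named genes were the 10 members, the 4 of each pathway list with the smallest p, and Casp9, Cycs, Xiap, Trp53, Mdm2 and Cdkn1a; 1 further gene that the rule fixed by name is not reported here. The members and lists were chosen with earlier results of these data known. Alternatives were a replicate block, 2 other filters, DESeq2 size factors, DESeq2 1.42.0, limma-voom and limma-trend on log2(FPKM + 1) with limma 3.58.1, counts divided by 4, a threshold of 0.1 and leaving out libraries. Figures were drawn with matplotlib 3.10.9.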

Additional observations from a re-analysis of the deposited data

How the results depend on the processing

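Of 150 values of the members' log2 fold changes under 15 alternatives, 146 kept their direction. The count of members past the adjusted p, 0, was 2 with DESeq2 (Apaf1 and Bcl2l1, where 1227 genes passed against 15 by edgeR) and ranged from 0 to 1 when single libraries were left out, the 1 being Apaf1 without 5-Fu replicate 3. It was 0 in the other alternatives, an adjusted p of 0.1 included. The 3 members under an unadjusted p of 0.05 became 0 with 5-Fu+BBR replicate 1 alone, and 2 to 4 without single libraries. Apaf1 and Bcl2l1 were under it in 14 of 15 alternatives each and Bax in 8. With 5-Fu+BBR replicate 1 alone, the single library is assumed to vary like the others. The cause was not tested.

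With a replicate block the counts were 0 and 3 members, and 113 genes passed. The numbers were not taken as a pairing, since the deviations of same-numbered libraries correlated by 0.03, 0.07 and 0.21, and 5-Fu replicate 2 correlated best with 5-Fu+BBR replicate 1 (0.18). The count of all genes past the adjusted p also changed to 77 without a filter, 0 without 5-Fu replicate 1 or 5-Fu+BBR replicate 2, 159 without 5-Fu replicate 2, 53 without 5-Fu replicate 3, 54 without 5-Fu+BBR replicate 1, 0 with 5-Fu+BBR replicate 1 alone and 144 at a threshold of 0.1.

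The values that changed direction were all small. When single libraries were left out, the log2 fold change ranged from -0.19 to 0.15 for Bak1 (below 0 without 5-Fu replicate 2, at -0.03, or 5-Fu+BBR replicate 1), -0.13 to 0.02 for Mcl1 and -0.19 to 0.01 for Bbc3 (both above 0 without 5-Fu replicate 3). Among the pathway genes it ranged from -0.13 to 0.12 for Cycs, 0.00 to 0.15 for Btrc, -0.13 to 0.05 for Cdkn1a and -0.03 to 0.05 for Mdm2. Without reversing, Casp9 reached -0.08, Xiap -0.11, Fbxw7 0.16, Trp53 0.27 and Tnfrsf1a -0.18. Of the pathway genes at an unadjusted p under 0.05, Endog, Casp6 and Tnfrsf10b were under it without each single library, while Bcl2a1d, Bcl2a1a, Bcl2l14, Dffa, Dffb, Fasl, Zmat3 and Sesn2 exceeded it in 1 or more of these fits. With 5-Fu+BBR replicate 1 alone, Btrc was at -0.02, Cdkn1a at 0.12, Huwe1 at 0.02 and Mdm2 at -0.03. Cycs was at 0.00 without a filter and at -0.01 with DESeq2 or its size factors. Endog and Tnfrsf10b passed the adjusted p with DESeq2 (0.0235 and 0.0209).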

Other observations

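Over the genes that the deposited table annotates to the KEGG pathway of apoptosis, a list read after the other results, 119 other than the members were tested. At an unadjusted p under 0.05 by edgeR, 17 of them were higher and 10 lower in 5-Fu+BBR, 22.7% against 15.6% of all genes tested, and 0 had an adjusted p under 0.05. Their median log2 fold change was 0.01, the same as over all genes, with 62 positive and 57 negative values. For 20 of the 119 the berberine libraries all lay above those of 5-Fu in CPM, and for 16 of the 119 all lay below. Of all 20101 genes tested, 2466 (12.3%) and 1946 (9.68%) did so. The corresponding list for p53 signaling had 63 such genes tested, of which 7 were higher and 3 lower at an unadjusted p under 0.05, 15.9%.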
